A study of Arabidopsis thaliana with 12 samples.

Results

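Pericentromeric 24-nt siRNA signal that lies in short stretches is described here, across an siRNA mapping experiment in *Arabidopsis thaliana*. The authors divided the genome into bins of 100 bp and listed a bin in their table of 57094 bins with its 24-nt siRNA level in each of 12 libraries. A bin was taken here when it stood in a run of 1 to 4 adjoining listed bins, with starts 100 bp apart, and when its start fell in 1 of 10 windows that flank the centromeres of the 5 chromosomes. The windows are 1.1 to 3.8 Mb long. This choice gave 23266 bins in 15979 runs, 40.8% of all listed bins. In the same windows 5723 bins stood in 753 runs of 5 or more, and 23028 bins stood in short runs outside the windows. Being listed at all depends on the siRNA reads of these same libraries, so the members were chosen by their measured siRNA levels, and the length and number of runs are given as description only.

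The libraries came from whole seedlings 2 weeks old, 3 biological replicates for each of 4 genotypes, and the labels say nothing more on how the replicates were separated, so that p-values measure the spread between these samples. The *pkl-1* seedlings carry a loss-of-function allele of PICKLE (PKL), a chromatin remodeler of the CHD3 family. The *nrpd1-3* seedlings lack a working largest subunit of RNA polymerase IV (Pol IV). The *nrpe1-11* seedlings lack a working largest subunit of RNA polymerase V (Pol V). Wild type (WT) seedlings were of the Col-0 accession and carry none of these mutations. Each mutant is a single allele, and all organs of the seedling were pooled in the RNA. A bulk level does not separate cells, so a smaller number of cells making a siRNA and less siRNA per cell cannot be told apart.

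In RNA-directed DNA methylation (RdDM), Pol IV transcribes transposons and other repeats, the RNA-dependent RNA polymerase RDR2 makes the transcripts double-stranded, and the Dicer enzyme DCL3 cuts them into 24-nt siRNAs. These siRNAs are loaded onto ARGONAUTE4 and its relatives, pair with scaffold transcripts made by Pol V at the same loci, and direct the DNA methyltransferase DRM2 to cytosines in all contexts. Pericentromeric heterochromatin is dense in transposons. Its long elements also keep methylation through CMT2, CMT3 and MET1, while short elements and element edges depend more on RdDM.

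The sequences of 8 bins are printed to show what these short siRNA loci look like at base level, from the RefSeq reference of the TAIR10 build, plus strand, 5′ to 3′. Capitals mark CG and CHG sites, where H is any base but G. CHG was searched on the printed strand as CAG, as CTG (the reverse complement of the first), as CCG and as its reverse complement CGG, and a CCG or CGG contains a CG. These sites hold a cytosine on both strands, and all other cytosines are in the CHH context. Sites that run across a bin border are not capitalised. The first group gained siRNA in *pkl-1*, and the bin at chr5:14937901-14938000 holds none of the capitalised letters. Of all chromosomal bins listed, 96.0% hold at least 1 of them.
chr5:14918101-14918200: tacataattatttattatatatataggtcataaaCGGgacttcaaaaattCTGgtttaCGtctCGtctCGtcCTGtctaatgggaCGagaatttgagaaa
chr5:14937901-14938000: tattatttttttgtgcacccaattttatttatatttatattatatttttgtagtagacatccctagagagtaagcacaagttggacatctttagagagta
chr5:13941501-13941600: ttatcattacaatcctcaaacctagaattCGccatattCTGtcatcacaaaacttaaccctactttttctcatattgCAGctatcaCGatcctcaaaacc
The second group lost siRNA in *pkl-1*, and the bin on chromosome 1 holds CHG but no CG, as do other bins among the 12.2% of members and 13.2% of chromosomal bins without CG.
chr3:10777501-10777600: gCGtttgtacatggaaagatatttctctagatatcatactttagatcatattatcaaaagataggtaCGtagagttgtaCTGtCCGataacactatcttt
chr1:13675501-13675600: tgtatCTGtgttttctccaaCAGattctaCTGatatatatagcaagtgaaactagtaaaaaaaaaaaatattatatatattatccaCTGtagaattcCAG
The next bin was chosen as 1 of the 3 single-bin runs with the highest WT level, and it ends in a TA repeat that is not unique in the genome.
chr5:10127801-10127900: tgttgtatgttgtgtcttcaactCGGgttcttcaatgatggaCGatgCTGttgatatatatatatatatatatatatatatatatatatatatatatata
The last 2 kept their reads in *nrpd1-3*. The bin on chromosome 1 lies in the *MIR829* gene, and no 24-base stretch of the bin on chromosome 5 is unique in the genome.
chr1:11834101-11834200: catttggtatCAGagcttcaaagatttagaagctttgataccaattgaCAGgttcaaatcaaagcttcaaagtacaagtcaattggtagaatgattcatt
chr5:12824201-12824300: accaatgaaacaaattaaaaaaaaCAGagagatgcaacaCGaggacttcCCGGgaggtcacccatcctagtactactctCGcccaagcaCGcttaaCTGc

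Levels are in RPTM, reads scaled by the authors to 10000000 mapped small RNA reads of all sizes kept. Mapped reads ranged from 6967335 to 10087448 in *pkl-1*, from 5598380 to 8955989 in *nrpd1-3*, from 6116124 to 6648631 in *nrpe1-11* and from 7164212 to 12390784 in WT, so 1 read was worth 0.807 to 1.79 RPTM. The short pericentromeric runs held 175759 to 254802 reads per library in *pkl-1*, 2906 to 6507 in *nrpd1-3*, 76636 to 103847 in *nrpe1-11* and 252891 to 429761 in WT. Because the denominator holds all small RNAs, a loss of siRNAs raises the RPTM of what remains. A read lying over the edge of neighbouring bins was counted in each of them, and the table does not keep the strand. In each mutant a library stood apart from the others of its genotype. Summed over chromosomal bins that never exceed 1000 RPTM, *pkl-1* replicate 1 had 537955 RPTM against 879725 and 1044505 RPTM in replicates 2 and 3, and the main counts and shares that rest on it are also given without it. *nrpd1-3* replicate 2 had reads in more bins than the other 2 libraries of its genotype. In the same sum over chromosomal bins, *nrpe1-11* replicate 1 had 381352 RPTM against 478563 and 470464 RPTM in replicates 2 and 3. Bins of 24-nt reads hold no tissue marker, so the label seedling was not checked.

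The rule took bins by presence in the table, so the levels that bring a bin into the table are described and not tested. Of the 23266 members, 23042 had more than 5 RPTM in at least 1 library and entered the tests, and 224 did not. Bins above 5 RPTM numbered 18550 in *pkl-1*, 273 in *nrpd1-3*, 13609 in *nrpe1-11* and 19585 in WT, counting a bin when any library of the genotype passed. A single genotype brought in 1276 bins in *pkl-1*, 15 in *nrpd1-3*, 757 in *nrpe1-11* and 1337 in WT, and these bins had to differ between libraries. In 8052 members (34.6%) no library went above 10 RPTM. Signal was concentrated, and the 1177 members with a WT mean above 50 RPTM, 5.06% of members, carried 41.4% of the WT signal of all members.

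Together the short pericentromeric runs lost nearly all siRNA in *nrpd1-3* and as RPTM the larger part of it in *nrpe1-11*, while *pkl-1* libraries ranged widely. The summed level was 174235, 295220 and 355269 RPTM in the *pkl-1* libraries. It was 4487, 9674 and 5191 RPTM in *nrpd1-3*, and 123442, 156602 and 156193 RPTM in *nrpe1-11*. The WT libraries had 346839, 352988 and 352992 RPTM. The *nrpd1-3* and *nrpe1-11* sums did not overlap with WT, and *pkl-1* replicate 3 lay above all WT libraries while replicates 1 and 2 lay below them. Replicate 3 exceeded each WT sum by less than the 9395 RPTM of its brightest bin, chr5:10127801-10127900. The WT mean of that bin was 1189 RPTM, so the place of replicate 3 above all WT libraries rests on it. As a share of the WT mean, the sums were 78.3% ± 26.3 in *pkl-1*, 1.84% ± 0.80 in *nrpd1-3* and 41.4% ± 5.42 in *nrpe1-11* (SD, n = 3). Without *pkl-1* replicate 1, which alone reached 49.7% of WT, the *pkl-1* share was 92.7% over 2 libraries. The direction of the *nrpe1-11* and *pkl-1* sums depends on the scaling. With libraries set to equal totals over chromosomal bins that never exceed 1000 RPTM, the mean sums were 368570 in *pkl-1*, 89019 in *nrpd1-3*, 362424 in *nrpe1-11* and 350964 in WT, so that only *nrpd1-3* lay below WT. Members are among the bins so equalised, so this scaling removes a loss shared by the chromosomes and cannot show one. In runs of 5 or more within the same windows the shares were 94.8% ± 26.8 in *pkl-1*, 7.0% ± 1.27 in *nrpd1-3* and 76.6% ± 10.3 in *nrpe1-11* (SD, n = 3). Of all 24-nt signal on the chromosomes, the members held 20.9% ± 4.03 in *pkl-1*, 1.14% ± 0.50 in *nrpd1-3*, 15.9% ± 1.59 in *nrpe1-11* and 22.6% ± 0.37 in WT (SD, n = 3). This whole also holds the bins above 1000 RPTM, which equal totals leave out, and under equal totals the *nrpe1-11* sum was not below WT.

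**Figure D1:**
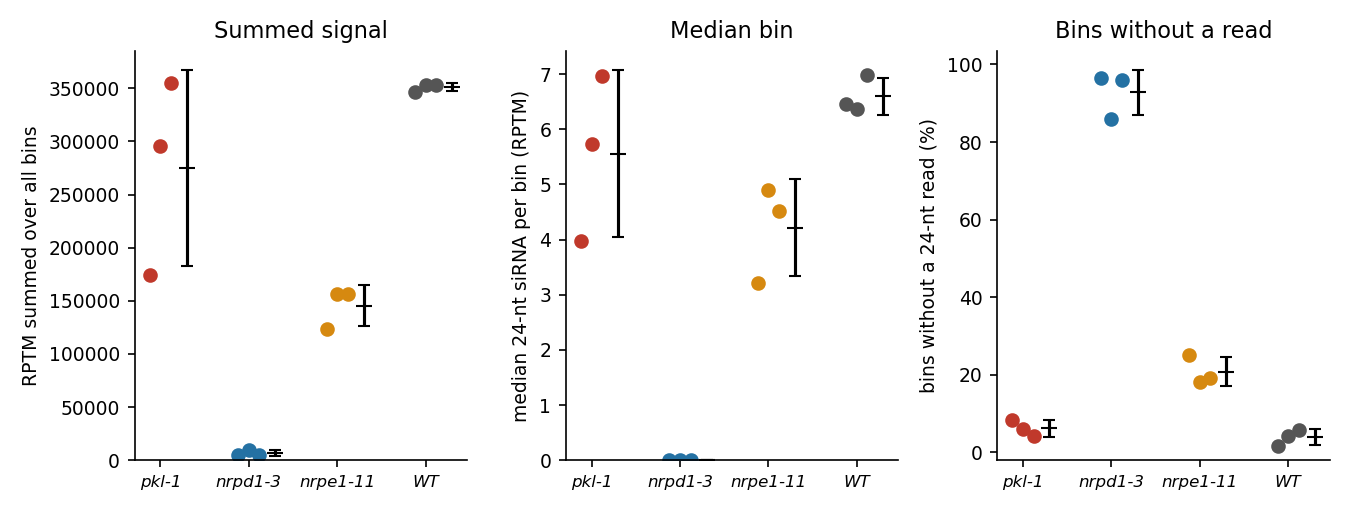
Summed and median 24-nt siRNA level of the 23266 short-run pericentromeric bins in each library, in RPTM, with the share of bins without a read in percent; points are libraries, and the dash with whiskers is the genotype mean ± SD (n = 3). The 3 *nrpd1-3* libraries lie near 0 in both level panels, the *nrpe1-11* libraries lie below WT, and the *pkl-1* libraries are spread from 174235 to 355269 RPTM in the sum.

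The median bin showed the same order of genotypes. Median levels were 3.97, 5.74 and 6.97 RPTM in *pkl-1*, 0 in every *nrpd1-3* library, 3.22, 4.91 and 4.51 RPTM in *nrpe1-11*, and 6.46, 6.36 and 6.98 RPTM in WT. Bins without any read made up 8.44%, 6.03% and 4.11% of members in *pkl-1*, 96.4%, 86.0% and 96.0% in *nrpd1-3*, 25%, 18.1% and 19.2% in *nrpe1-11*, and 1.68%, 4.26% and 5.80% in WT. The shares of empty bins did not overlap between *nrpd1-3*, *nrpe1-11* and WT, while *pkl-1* and WT overlapped. A member at 0 in a library may hold up to 3 reads' worth of signal, which is 2.42 RPTM in WT replicate 1 and 5.36 RPTM in *nrpd1-3* replicate 3. Intervals and floors of this kind cover counting error only.

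Each bin was then tested with limma on log2(RPTM + 1), with p-values adjusted over all 56658 bins that passed the 5 RPTM filter, and a bin counted as changed at an adjusted p under 0.01. A fold change on this scale understates the change of faint bins. The 3 mutant comparisons use the same WT libraries and are therefore not independent of each other.

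**Figure D2:**
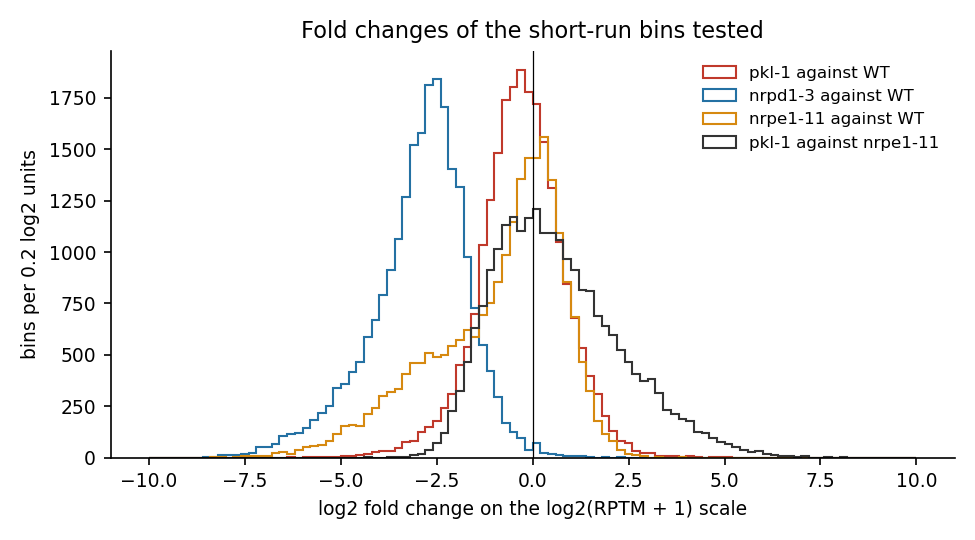
Distribution of log2 fold changes of the 23042 members tested in each comparison, on the log2(RPTM + 1) scale, as the number of bins per step of 0.2. The *nrpd1-3* values lie almost wholly below 0, the *nrpe1-11* values have a long tail below 0, and the *pkl-1* values are centred near 0 with tails on both sides, around a median of −0.28.

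The Pol IV mutant *nrpd1-3* answers how far these loci depend on the siRNA-producing polymerase. In *nrpd1-3* against WT, 19932 members changed (86.5%), where 84.7% of all bins tested did. Of these, 8 were higher in *nrpd1-3* (0.035% of members, where 0.141% of all bins were) and 19924 were lower (86.5%, where 84.6% were). In each of them the *nrpd1-3* and WT libraries did not overlap, while 0.762% of all bins lay apart upward and 86.5% downward, called or not. The median log2 fold change was −2.79 over members and −2.95 over all bins, and it is limited by the faintness of the bins, since few reads in WT leave little room to fall. Leaving out 1 library at a time gave 17786 to 18884 changed members. The count of 8 higher bins became 4 without WT replicate 2 or without *nrpd1-3* replicate 3. It was 1 with a filter on WT libraries alone, 176 under equal totals, 44 with edgeR and TMM, 1 with DESeq2, and 1391 under quantile normalization, where the median of members was 0.21.

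The member with the largest fall was chr3:10777501-10777600, printed above, an intergenic single-bin run 237 bp from AT3G28715. It had 0, 2.97 and 0 RPTM in *nrpd1-3* and 1391, 1210 and 1231 RPTM in WT, with a log2 fold change of −9.65 ± 0.57 (SE) and an adjusted p of 1.27e-05. At chr5:15993101-15993200, 173 bp from AT5G39955, no read was found in any *nrpd1-3* library, against 558, 472 and 549 RPTM in WT, which is at least 360-fold lower when 3 reads over the 3 libraries set the floor. The bin chr3:16293701-16293800 had 1.12, 7.43 and 0 RPTM in *nrpd1-3* and 1211, 1328 and 1355 RPTM in WT, a 455-fold difference of means. Its nearest gene, 1237 bp away, is *PSK3*, which encodes a precursor of the peptide hormone phytosulfokine. Intergenic bins also led the rest of this group: chr2:6757501-6757600 near *UGT73B5*, a glycosyltransferase gene (log2 fold change −8.62), chr5:13768601-13768700 near *PAA1*, which encodes a proteasome subunit (−8.54), and chr1:16559101-16559200, 282 bp from AT1G43777 (−8.50). In none of the 6 bins did a *nrpd1-3* library come near a WT library.

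A small residue of reads stayed in *nrpd1-3*. Among members, 110 held more than 5 RPTM in all 3 *nrpd1-3* libraries, of which 64 were intergenic, 24 in protein-coding genes, 15 in other RNA genes, 6 in miRNA genes and 1 in a pseudogene or transposon gene. Another 79 passed 5 RPTM in replicate 2 only. The 3 bins with the highest *nrpd1-3* mean held 5.25% of the *nrpd1-3* signal of all members, and the 20 highest held 19.7%. The highest was the *MIR829* bin chr1:11834101-11834200, an exon of AT1G32713, with 42.6, 151 and 236 RPTM in *pkl-1*, 73.7, 192 and 129 RPTM in *nrpd1-3*, 41.9, 85.0 and 99.3 RPTM in *nrpe1-11*, and 46.0, 149 and 74.0 RPTM in WT. These libraries overlapped in every comparison, and none of the tests passed (adjusted p 0.313 for *nrpd1-3* against WT). MicroRNA precursors are made by RNA polymerase II and not by Pol IV.

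The next 2 bins by *nrpd1-3* level lay outside miRNA genes. The bin chr3:11586201-11586300 lies in an exon of the long non-coding RNA gene AT3G05955 and had 112, 135 and 128 RPTM in *pkl-1*, 108, 125 and 118 RPTM in *nrpd1-3*, 111, 88.3 and 96.3 RPTM in *nrpe1-11*, and 56.5, 57.2 and 76.8 RPTM in WT. It was higher in *nrpd1-3* than in WT by 0.88 ± 0.20 on the log2 scale (SE, adjusted p = 0.00588), and the other 2 mutants did not pass (adjusted p 0.0553 in *pkl-1* and 0.0484 in *nrpe1-11*). The *nrpd1-3* call was lost with a pseudocount of 0.1 (adjusted p = 0.0135), a filter on WT libraries (0.0128), a replicate block (0.0131) or DESeq2 (0.0123), and without WT replicate 1 (0.0175), WT replicate 2 (0.0247), *nrpd1-3* replicate 1 (0.0143) or *nrpd1-3* replicate 3 (0.0185). The bin chr5:12824201-12824300 is the third of a run of 4 and lies 13538 bp from any annotated gene. None of its 24-base stretches is unique, so its reads cannot be placed at this copy alone. What kind of repeat or RNA they come from was not tested. Its levels were 148, 77.5 and 90.6 RPTM in *pkl-1*, 88.2, 90.7 and 91.1 RPTM in *nrpd1-3*, 137, 111 and 94.8 RPTM in *nrpe1-11*, and 117, 77.6 and 97.7 RPTM in WT. No comparison passed there, and the groups overlapped in each.

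Of the members higher in *nrpd1-3*, the 6 furthest are named, of which 3 lay in exons of RNA genes and 2 within 91 bp of such a gene. The neighbour of the AT3G05955 bin stood first. This bin, chr3:11586301-11586400, had 10.05, 11.9 and 10.7 RPTM in *nrpd1-3* and 0, 2.54 and 2.79 RPTM in WT (log2 fold change 2.32 ± 0.53 SE, adjusted p = 0.00586). Exons of the valine tRNA genes AT5G38155 and AT3G45955 held the bins chr5:15225301-15225400 (2.30, adjusted p = 0.0055) and chr3:16891601-16891700 (1.43, adjusted p = 0.00269), although the authors removed reads of annotated tRNAs. Close to the RNA gene AT3G00580 lay chr3:11482801-11482900 (2.22, adjusted p = 0.0018) and chr3:11482001-11482100, which had 31.3, 55.0 and 26.8 RPTM in *nrpd1-3*, 27.4, 39.2 and 45.1 RPTM in *nrpe1-11*, and 8.88, 7.63 and 12.6 RPTM in WT. This last bin rose in both polymerase mutants (log2 fold change 1.81 in *nrpd1-3*, adjusted p = 0.00221, and 1.84 in *nrpe1-11*, adjusted p = 0.00204). In *pkl-1* it had 4.96, 7.18 and 6.97 RPTM and did not pass against WT (adjusted p = 0.522). The sixth, chr2:2026901-2027000 in an exon of *GRP-3*, which encodes a glycine-rich protein, had 4.47, 10.4 and 5.36 RPTM in *nrpd1-3* and 0.807, 2.54 and 1.40 RPTM in WT (adjusted p = 0.0073).

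Each of these 6 calls of a higher level in *nrpd1-3* was lost under some setting. The *GRP-3* bin was lost with a pseudocount of 0.1 (adjusted p = 0.0129), a joint fit of all genotypes (0.0168) or DESeq2 (0.109), and in 5 of the 6 fits without 1 library (0.0119 to 0.0376). The bin chr3:11586301-11586400 was lost with a pseudocount of 0.1 (0.0549) or DESeq2 (0.0199), and in 5 fits without 1 library (0.0134 to 0.0168). The bin in AT5G38155 was lost with a pseudocount of 5 (0.0128) and in 5 fits without 1 library (0.0188 to 0.0336). Fewer settings ended the other calls. The bin in AT3G45955 was lost in the joint fit (0.0114), with edgeR and the authors' library sizes (0.0105), with DESeq2 (0.104) and without WT replicate 2 (0.0166) or 3 (0.0168). The bin chr3:11482801-11482900 was lost with a pseudocount of 0.1 (0.0261) or DESeq2 (0.032), and chr3:11482001-11482100 without WT replicate 1 (0.0165) or 2 (0.0169).

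The Pol V mutant *nrpe1-11* separates the loci that keep siRNA without the scaffold polymerase. In *nrpe1-11* against WT, 5572 members changed (24.2%), where 30.4% of all bins did. Of these, 173 were higher in *nrpe1-11* (0.75% of members, where 1.02% of all bins were) and 5399 were lower (23.4%, where 29.4% were). All had libraries that lay apart, as 7.45% of all bins did upward and 41.7% downward. The median log2 fold change was −0.48 over members and −0.68 over all bins, and the middle 80% of members ranged from −3.44 to 0.91. Scaling the libraries to equal totals over bins that never exceed 1000 RPTM moved the median of all bins to 0.32 and that of members to 0.53, and members then split into 2096 higher and 2854 lower. By its construction that scaling removes a loss that these bins share. Leaving out WT replicate 1, 2 or 3 reduced the changed members to 3439, 3229 and 3301, and the higher bins to 89, 48 and 56. A filter on WT libraries alone left 72 higher and 5580 lower members. Bins that passed 5 RPTM only through *nrpe1-11* had to lie higher there, so the count of 173 in part reflects the filter.

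The members lower in *nrpe1-11* had, by the values that chose them, a median of 0.55 RPTM ± 0.94 in *nrpe1-11* and 19.2 RPTM ± 1.33 in WT (SD, n = 3). In *pkl-1* their median was 10.8 RPTM ± 3.55. Of them 84.3% were intergenic, and their median GC content was 32%, against 36% over members. The furthest 6 were all intergenic and had *nrpe1-11* reads in replicate 2 only or in no library. Chromosome 3 held chr3:10654101-10654200, 270 bp from AT3G28420, with 0, 9.81 and 0 RPTM in *nrpe1-11* and 767, 953 and 777 RPTM in WT (log2 fold change −8.55 ± 0.84 SE, adjusted p = 0.000123). A second bin of that neighbourhood, chr3:10653401-10653500, had 0, 3.27 and 0 RPTM in *nrpe1-11* and 650, 500 and 412 RPTM in WT (−8.30). The remaining ones were chr1:17384401-17384500 (−8.28) and chr1:17382101-17382200 (−8.08), both near AT1G47395, chr3:16193301-16193400 near AT3G44620 (−8.03), and chr5:13859101-13859200, 16 bp from AT5G35680 (−8.02).

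The last of these bins shows how far *pkl-1* and *nrpe1-11* can part at 1 locus. At chr5:13859101-13859200 the level was 194, 316 and 382 RPTM in *pkl-1*, 0, 1.49 and 0 RPTM in *nrpd1-3*, 0 in all 3 *nrpe1-11* libraries, and 210, 304 and 271 RPTM in WT. The *pkl-1* and WT libraries overlapped (log2 fold change 0.15 ± 0.35 SE, adjusted p = 0.82), and *nrpe1-11* was at least 165-fold lower than WT. Other bins of this group did fall in *pkl-1*. At chr3:10654101-10654200 the *pkl-1* libraries had 42.6, 78.9 and 96.2 RPTM, a log2 fold change of −3.57 against WT (adjusted p = 1.21e-08), and they lay 4.98 above *nrpe1-11* on the log2 scale (adjusted p = 0.00207).

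Members higher in *nrpe1-11* than in WT had medians of 12.6 RPTM ± 1.20 in *nrpe1-11* and 2.59 RPTM ± 0.19 in WT (SD, n = 3), with a median GC content of 39%. The largest rise lay in an exon of the protein-coding gene AT5G27890, chr5:9904501-9904600, with 45.1, 63.8 and 63.2 RPTM in *nrpe1-11*, 0 in all *nrpd1-3* libraries and 2.42, 1.27 and 1.40 RPTM in WT. This was 33.8-fold (log2 fold change 4.44 ± 0.33 SE, adjusted p = 4.65e-05), and *nrpd1-3* was lower than WT there (adjusted p = 0.00125). The pseudogene or transposon gene AT3G32230 held chr3:13208801-13208900, with 37.0, 60.5 and 69.2 RPTM in *nrpe1-11* and 0.807, 5.09 and 4.19 RPTM in WT (3.83, adjusted p = 0.00049). The intergenic bin chr2:1360001-1360100 (at least 9.11-fold) and the bin chr3:16322301-16322400 in an exon of AT3G44780 (at least 7.73-fold) had no WT read. The intergenic bin chr5:12686101-12686200 had 6.44, 17.99 and 13.5 RPTM in *nrpe1-11* and 0.807, 0 and 0 RPTM in WT (3.38, adjusted p = 0.000947). In chr1:16303701-16303800, which had 33.8, 31.1 and 31.6 RPTM in *nrpe1-11* and 2.42, 0 and 2.79 RPTM in WT, only 2.44% of the 24-base windows are unique in the genome.

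Loss in *nrpe1-11* went with annotation and with level. Intergenic here means outside every annotated gene and pseudogene, so a transposable element without such an entry counts as intergenic. Intergenic bins numbered 13855 (59.6% of members), pseudogenes or transposon genes, which the annotation does not separate, held 7188 (30.9%), protein-coding genes 1820 (7.8%), other RNA genes 363 (1.6%) and miRNA genes 40 (0.2%). In *nrpe1-11*, 33.7% of the intergenic bins tested changed, against 5.32% in pseudogenes or transposon genes and 26.4% in protein-coding genes. The median log2 fold change was −1.12 in intergenic bins, 0.17 in pseudogenes or transposon genes and −0.55 in protein-coding genes. Under equal totals these medians became −0.21, 1.30 and 0.43, so the sign in protein-coding genes depends on the scaling, and under quantile normalization the intergenic median also turned, to 0.06. The order of the intergenic and pseudogene classes was kept under each of these scalings. WT medians were 8.45 RPTM in intergenic bins and 4.71 RPTM in pseudogenes or transposon genes, so the classes also differ in level.

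The classes were therefore also compared within strata of the mean over all 12 libraries. This mean includes the *nrpe1-11* libraries, and WT levels within a stratum were not equal, with WT medians of 3.70 RPTM in intergenic and 2.85 RPTM in pseudogene or transposon gene bins below 3 RPTM, and 99.4 and 76.4 RPTM from 30 RPTM up. Below 3 RPTM, 16.5% of 2678 intergenic bins and 2.28% of 2064 pseudogene or transposon gene bins were lower in *nrpe1-11* than in WT. Between 8 and 15 RPTM these shares were 46.0% of 2172 and 9.59% of 615 bins, and from 30 RPTM up they were 77.9% of 774 and 57.1% of 56 bins. The median log2 fold changes in those strata were −0.60, −1.78 and −3.80 in intergenic bins and 0.09, 0.26 and −1.93 in pseudogenes or transposon genes. Of these 2 classes the intergenic had the larger share in each of the 6 strata. In protein-coding genes the shares in the 3 strata given were 13.0% of 430, 41.1% of 253 and 90.2% of 61 bins. The median log2 fold changes there were −0.34, −1.22 and −4.73. From 30 RPTM up, protein-coding bins thus had a larger share lower than intergenic bins. The transposable element family of a bin was not analysed here.

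**Figure D3:**
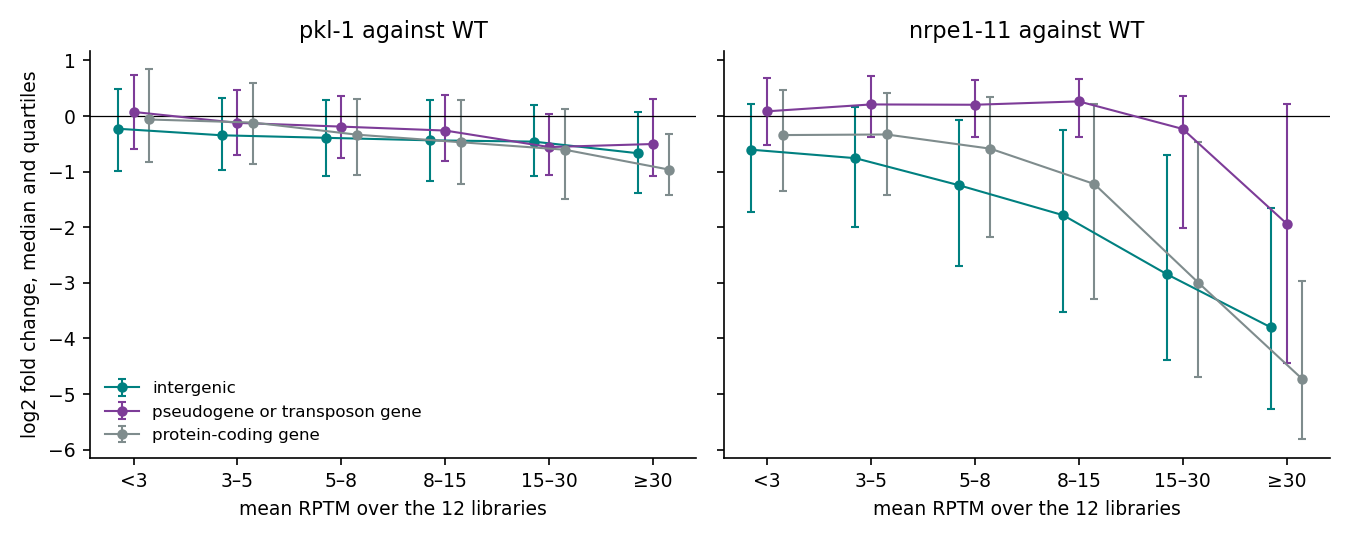
Log2 fold change against WT (median as a point, quartiles as whiskers over bins) by level stratum, the mean of the bin over all 12 libraries in RPTM, for intergenic, pseudogene or transposon gene and protein-coding gene bins, in *pkl-1* (left) and *nrpe1-11* (right). In *nrpe1-11* the intergenic median is −0.60 in the lowest stratum and −3.80 in the highest, and the pseudogene median lies above it throughout, while in *pkl-1* the medians are −0.23, 0.07 and −0.06 in the lowest stratum and −0.67, −0.50 and −0.96 in the highest, in the order of the classes given. Without *pkl-1* replicate 1, which the figure includes, the *pkl-1* medians were 0.02, 0.28 and 0.17 in the lowest stratum and −0.37, −0.26 and −0.70 in the highest.

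The *pkl-1* comparison asks whether the remodeler affects siRNA levels at these loci. In *pkl-1* against WT, 1820 members changed (7.90%), where 10.2% of all bins did. Of these, 408 were higher in *pkl-1* (1.77% of members, where 1.98% of all bins were) and 1412 were lower (6.13%, where 8.2% were). Libraries lay apart in 404 of the higher and 1410 of the lower bins, and over all bins 9.35% lay apart upward and 24.5% downward, called or not. The median log2 fold change was −0.28 over members and −0.31 over all bins, and the middle 80% of members ranged from −1.62 to 1.06. Without *pkl-1* replicate 1, 1885 members changed, 616 higher and 1269 lower, and their median was −0.02. Under equal totals 1112 were higher and 1053 lower, so that 51.4% of the calls were higher in place of 22.4% without that scaling. The medians became 0.11 over members and 0.09 over all bins, but equal totals remove any shift that the chromosomes share. A shift of the whole set in either direction was not shown by these fits. The count fell to 772, 793 and 739 without WT replicate 1, 2 or 3, and the higher bins fell to 145 without *pkl-1* replicate 2 and 153 without replicate 3. A filter on WT libraries alone left 251 higher and 1469 lower members. Bins that passed the filter only through *pkl-1* had to lie higher there, so the count of 408 in part reflects the filter.

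Bins higher and bins lower in *pkl-1* were both mostly intergenic. By the values that chose them, the 408 higher bins had medians of 25.2 RPTM ± 9.12 in *pkl-1* and 3.55 RPTM ± 0.66 in WT (SD, n = 3). In these bins the medians were 0 in *nrpd1-3* and 1.58 RPTM ± 0.07 in *nrpe1-11*. The 1412 lower bins had medians of 3.96 RPTM ± 1.82 in *pkl-1* and 27.4 RPTM ± 2.20 in WT (SD, n = 3). Intergenic bins made up 76.0% of the higher and 77.4% of the lower group, against 59.6% of members. Median GC content was 31% in the higher and 34% in the lower group. By annotation, 10.2% of intergenic bins changed in *pkl-1*, 2.48% of those in pseudogenes or transposon genes, 11.0% in protein-coding genes, 10.6% in other RNA genes and 12.8% of the 39 tested in miRNA genes. Without *pkl-1* replicate 1 the first 3 shares were 10.9%, 2.35% and 10.3%, and the intergenic bins held 503 higher and 989 lower calls in place of 310 and 1093. In *pkl-1* too the lower calls followed level, with 3.32% of intergenic and 0.68% of pseudogene bins lower below 3 RPTM, and 24% and 16.1% from 30 RPTM up. These 4 shares were 2.46%, 0.436%, 26% and 21.4% without *pkl-1* replicate 1. Protein-coding bins were lower in 5.35% below 3 RPTM and 29.5% from 30 RPTM up, and in 2.33% and 36.1% without *pkl-1* replicate 1.

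The rises in *pkl-1* reached bins that were nearly empty in WT. Foremost was chr5:14918101-14918200, the first bin of a run of 2 and 701 bp from AT5G37550, with 147, 276 and 417 RPTM in *pkl-1*, no reads in *nrpd1-3*, 0, 0 and 1.5 RPTM in *nrpe1-11*, and 1.61, 2.54 and 6.98 RPTM in WT. *pkl-1* was 75.3-fold higher than WT (log2 fold change 5.94 ± 0.46 SE, adjusted p = 1.73e-10), and its lowest library lay far above the highest WT library. The second bin of the run, chr5:14918201-14918300, also rose, with means of 24.4 RPTM in *pkl-1* and 0.538 RPTM in WT (4.13, adjusted p = 6.14e-06).

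Further rises lay on chromosomes 4 and 5. The bin chr4:5801501-5801600, 708 bp from AT4G09070, had 115, 357 and 556 RPTM in *pkl-1* and 6.46, 1.27 and 8.37 RPTM in WT (log2 fold change 5.72 ± 0.51 SE, adjusted p = 2.18e-09). Only 1 bin of the 6 furthest lay in a gene, chr4:5658401-5658500 in AT4G08869 outside its exons, with 75.3, 89.0 and 142 RPTM in *pkl-1* and 2.42, 3.82 and 0 RPTM in WT (5.29 ± 0.52 SE, adjusted p = 1.02e-08). The bin without any CG or CHG, chr5:14937901-14938000, had 50.6, 53.1 and 87.8 RPTM in *pkl-1* and 0, 1.27 and 1.40 RPTM in WT (5.16 ± 0.51 SE, adjusted p = 1.2e-08). It lies 32 bp from AT5G37610. Each of these 3 bins held at most 3 reads over the *nrpe1-11* libraries and at most 1 over the *nrpd1-3* libraries, and their *pkl-1* libraries all lay above WT.

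The remaining 2 of these bins were at the detection limit outside *pkl-1*. No read was found in any library of *nrpd1-3*, *nrpe1-11* or WT at chr5:13941501-13941600, where *pkl-1* had 32.7, 34.4 and 26.5 RPTM, at least 27.0-fold higher than WT (adjusted p = 9.07e-08). Its nearest gene, 634 bp away, is *STERILE APETALA* (AT5G35770), a regulator of flower and organ development. At chr2:1917101-1917200, 444 bp from AT2G05250, *pkl-1* had 18.8, 45.9 and 57.2 RPTM, against 0.807, 0 and 0 RPTM in WT (log2 fold change 4.96, adjusted p = 1.46e-07). Across all members 72 had no WT read at all, and of the 47 of them that passed the filter 17 were called higher in *pkl-1* and 19 in *nrpe1-11*. Such bins passed through a mutant and had to differ, so these counts support nothing.

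The losses in *pkl-1* included 2 of the 3 single-bin runs with the highest WT mean. At chr3:10777501-10777600 the level was 0.991, 14.4 and 16.7 RPTM in *pkl-1*, 27.4, 32.7 and 24.1 RPTM in *nrpe1-11*, and 1391, 1210 and 1231 RPTM in WT. This was 119-fold lower in *pkl-1* than in WT (log2 fold change −7.29 ± 0.51 SE, adjusted p = 2.68e-11) and 45.5-fold lower in *nrpe1-11* than in WT (−5.47, adjusted p = 1.84e-05). Each mutant lay wholly below WT.

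A different balance was seen at chr1:13675501-13675600, the bin with CHG and no CG, 1296 bp from AT1G36320. It had 3.97, 25.8 and 16.7 RPTM in *pkl-1*, 0, 19.3 and 5.36 RPTM in *nrpd1-3*, 495, 437 and 540 RPTM in *nrpe1-11*, and 1530, 1664 and 1565 RPTM in WT. The loss was 102-fold in *pkl-1* (log2 fold change −6.90 ± 0.43 SE, adjusted p = 4.12e-12) and 3.23-fold in *nrpe1-11* (−1.70 ± 0.14 SE, adjusted p = 6.25e-05). Set directly against each other, *pkl-1* was 31.6-fold lower than *nrpe1-11* (−5.20 ± 0.54 SE, adjusted p = 0.000205). Its neighbour in the run, chr1:13675601-13675700, moved alike, at −5.78 in *pkl-1* and −1.52 in *nrpe1-11*.

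Other large losses in *pkl-1* were near to complete. The bin chr1:12435401-12435500, 382 bp from AT1G34150, had 0, 1.44 and 0 RPTM in *pkl-1* and 85.5, 153 and 113 RPTM in WT (log2 fold change −6.42, adjusted p = 1.73e-10). No *pkl-1* read was found at chr1:17295401-17295500, 88 bp from the long non-coding RNA gene AT1G07323, against 57.3, 89.0 and 87.9 RPTM in WT, at least 61.3-fold lower. In neither bin did *pkl-1* overlap WT. At chr5:10003501-10003600, 811 bp from AT5G27970, *pkl-1* had 0, 5.74 and 1.39 RPTM and WT had 228, 155 and 191 RPTM (−6.23, adjusted p = 4.66e-10). The last, chr2:1695901-1696000, 38 bp from the long non-coding RNA gene AT2G04815, was 74.7-fold lower, with 2.97, 5.74 and 4.18 RPTM in *pkl-1* and 282, 287 and 394 RPTM in WT. In each of these 4 bins *nrpe1-11* was also lower than WT, by −6.38, −4.96, −4.64 and −7.62 on the log2 scale.

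**Figure D4:**
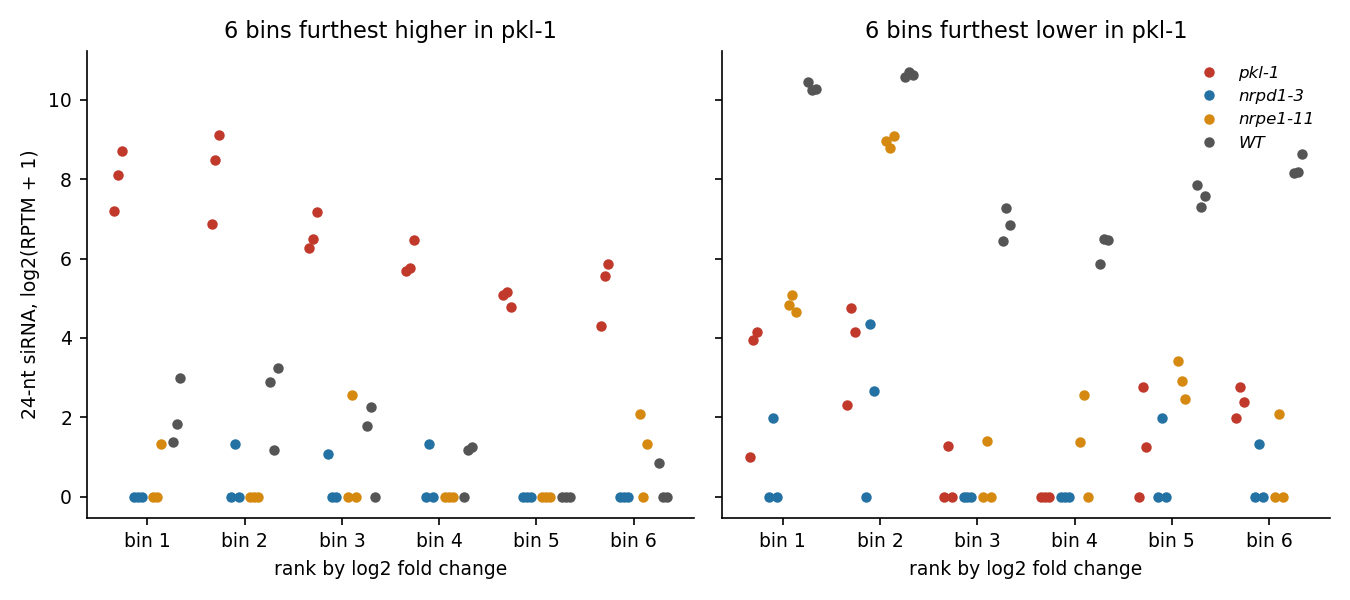
Level, as log2(RPTM + 1), of the 6 bins furthest higher (left) and the 6 furthest lower (right) in *pkl-1* against WT, in the order in which the text gives them, with 1 point per library and the genotypes side by side. In the left panel all *pkl-1* points lie above all others, and in the right panel all WT points do, with the second bin, chr1:13675501-13675600, keeping 437 to 540 RPTM in *nrpe1-11*.

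The 3 single-bin runs with the highest WT mean moved in different directions in *pkl-1*. The brightest, chr5:13768601-13768700, 713 bp from *PAA1*, had 97.2, 221 and 224 RPTM in *pkl-1*, 341, 342 and 254 RPTM in *nrpe1-11*, and 1956, 1704 and 2117 RPTM in WT, with log2 fold changes of −3.50 in *pkl-1* (adjusted p = 1.5e-08) and −2.63 in *nrpe1-11* (adjusted p = 3.16e-05). The second was the bin at chr3:10777501-10777600 above. The third, chr5:10127801-10127900, 297 bp from the long non-coding RNA gene AT5G04675, had 2325, 4781 and 9395 RPTM in *pkl-1*, 2.23, 113 and 1.79 RPTM in *nrpd1-3*, 8.05, 44.1 and 25.6 RPTM in *nrpe1-11*, and 1277, 996 and 1294 RPTM in WT. It was 4.63-fold higher in *pkl-1* than in WT (2.00 ± 0.38 SE, adjusted p = 0.000336). The call was lost without WT replicate 1 (adjusted p = 0.0115), WT replicate 2 (0.0147) or *pkl-1* replicate 3 (0.0101), and with a spread estimated over all 4 genotypes (0.182). Of the 24-base stretches that touch this bin, 71.5% are unique.

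The direct comparison of *pkl-1* with *nrpe1-11* uses no WT library and shows where these mutants differ. Of the members, 3484 differed (15.1%), where 18.9% of all bins did. In 3257 *pkl-1* was higher than *nrpe1-11*, as it was in 18.0% of all bins, and in 227 it was lower, as in 0.973% of all bins. All had libraries that lay apart, as 32.9% of all bins did upward and 11.9% downward. The median difference was 0.41 over members and 0.53 over all bins, and under equal totals it was −0.23 and −0.07, with 2318 members higher and 1410 lower. Without *pkl-1* replicate 1 there were 2588 higher and 113 lower bins. The total fell to 1384 without *pkl-1* replicate 2, 1470 without *pkl-1* replicate 3, 2122 without *nrpe1-11* replicate 1 and 1985 without *nrpe1-11* replicate 3.

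By the values that chose them, the bins higher in *pkl-1* than in *nrpe1-11* had medians of 19.8 RPTM ± 6.28 in *pkl-1* and 0 in *nrpe1-11*, and 18.1 RPTM ± 1.07 in WT. Those lower had medians of 3.34 RPTM ± 0.73 in *pkl-1* and 19.0 RPTM ± 1.08 in *nrpe1-11*, and 8.99 RPTM ± 0.66 in WT (SD, n = 3). The furthest apart was chr2:5861301-5861400, in an exon of AT2G13960, with 1190, 2924 and 2946 RPTM in *pkl-1* and 0, 11.4 and 0 RPTM in *nrpe1-11* (log2 difference 9.87 ± 0.87 SE, adjusted p = 0.000123). Its WT libraries had 60.5, 81.4 and 85.1 RPTM, so *pkl-1* was 31.1-fold above WT (adjusted p = 8.79e-11) and *nrpe1-11* was 19.8-fold below it (adjusted p = 0.00238). The bins chr5:13859101-13859200 and chr4:5801501-5801600 followed, at least 188-fold and at least 217-fold higher in *pkl-1*.

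In the other direction, 2 bins had no *pkl-1* read at all. The bin chr2:5053601-5053700, 1715 bp from *LCR50*, a gene of the defensin-like family, had 0 in all *pkl-1* libraries, 30.6, 21.3 and 36.1 RPTM in *nrpe1-11* and 12.9, 10.2 and 12.6 RPTM in WT. It was at least 23-fold lower in *pkl-1* than in *nrpe1-11* (adjusted p = 0.0002). The bin chr5:14281601-14281700, 359 bp from *PP2C74*, which encodes a protein phosphatase, also had 0 in *pkl-1*, with 14.5, 22.9 and 19.6 RPTM in *nrpe1-11* and 12.9, 17.8 and 22.3 RPTM in WT. There *pkl-1* was at least 14.9-fold lower than *nrpe1-11*, while *nrpe1-11* and WT overlapped (adjusted p = 0.835).

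Within a run, the bins did not always move together. Counts by run were made for the members only, so whether they are particular to the members was not tested. Bin by bin, 10.2% of all bins tested changed in *pkl-1*, 30.4% in *nrpe1-11* and 84.7% in *nrpd1-3*. Runs of 2 to 4 bins numbered 4976. In *pkl-1* 839 of them held a changed bin, 203 with a higher bin, 668 with a lower bin and 32 with both, and in 140 runs all bins changed in the same direction. These counts were 917, 337, 624, 44 and 115 without *pkl-1* replicate 1. In *nrpe1-11* 2027 runs held a changed bin and 934 changed throughout, and in *nrpd1-3* 4851 held a changed bin and 3817 changed throughout. Adjoining bins share border reads, so bins of a run are not separate measurements. The sharpest border among the named runs was on chromosome 4. There chr4:5801501-5801600 rose in *pkl-1*, and the next bin, chr4:5801601-5801700, had no *pkl-1* read against a mean of 9.45 RPTM in WT (log2 fold change −3.38, adjusted p = 0.000371). In the run of 4 that starts at chr2:1917101-1917200, mean levels along the run were 40.6, 21.0, 10.1 and 3.19 RPTM in *pkl-1* and 0.269, 17.2, 17.2 and 10.3 RPTM in WT. The *pkl-1* signal was thus highest in the bin where WT had almost none, and only that bin passed the test (adjusted p 0.885, 0.273 and 0.0667 in the next 3).

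Changes by run length are given because the upper limit of 4 bins is a choice. Runs of 1, 2, 3 and 4 bins held 10999, 6434, 3657 and 2176 members, and 1355 bins stood in runs of 5, just outside the limit. WT medians were 5.86, 7.29, 8.72 and 8.72 RPTM in runs of 1 to 4, and 8.72 RPTM in runs of 5. The level was thus lowest in single bins and alike in runs of 3, 4 and 5. In *pkl-1* 6.16%, 9.04%, 9.81% and 10.1% of bins changed in runs of 1 to 4, and 8.01% in runs of 5. Without *pkl-1* replicate 1 the shares were 6.18%, 9.37%, 10.6% and 10.8%, and 9.87% in runs of 5. In *nrpe1-11* the shares were 17.9%, 29.3%, 32.5% and 26.9%, and 23.7% in runs of 5. Single-bin runs thus had the fewest changes, and they also had the lowest level. They lay in pseudogenes or transposon genes in 37.1% of cases, against 26.7%, 23.8% and 23.8% in runs of 2, 3 and 4.

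**Figure D5:**
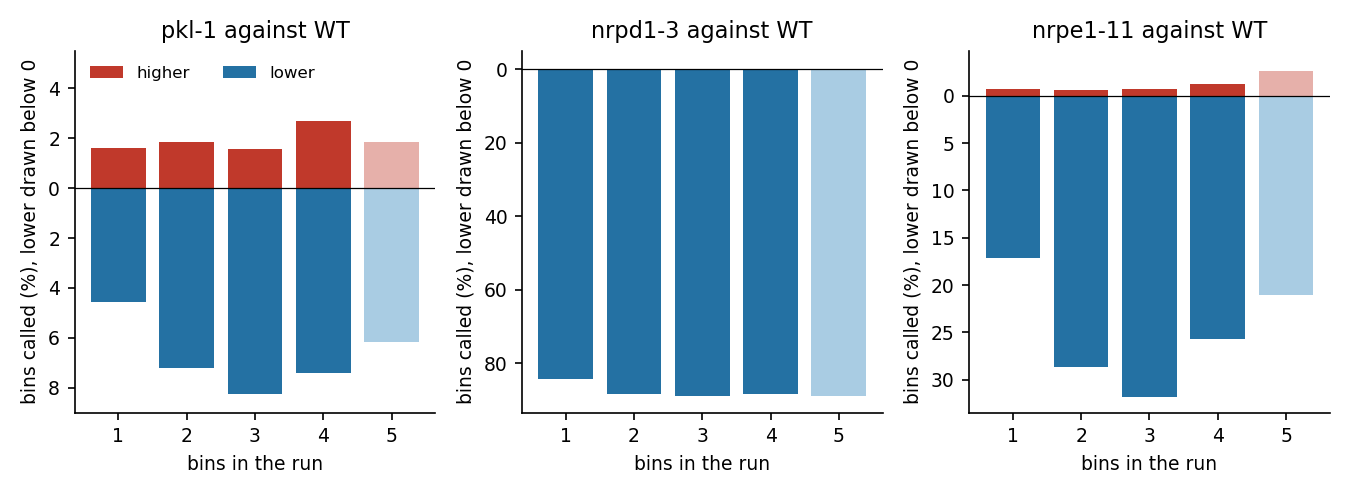
Share of bins called higher (bars above 0) and lower (bars below 0) than WT, in percent at an adjusted p under 0.01, by the number of bins in the run, with runs of 5 paler because they lie outside the limit, 1 panel per mutant with its own scale. Lower calls outnumber higher calls in each bar, and in *nrpe1-11* both together are 17.9% in single bins and 32.5% in runs of 3.

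The short runs are set beside the long runs of the same windows and short runs elsewhere as a description, because run length comes from the same reads. In *nrpe1-11* 24.2% of members changed, against 17.2% of bins in runs of 5 or more in the windows and 41.8% in short runs outside the windows. The order of short and long runs in the windows depends on the scaling, as these shares were 21.5%, 27.8% and 32.5% under equal totals and 28.9%, 36.5% and 38.3% under quantile normalization, against 26.8%, 23.5% and 42.8% with edgeR and TMM and 16.6%, 14.0% and 30.2% with DESeq2. In *pkl-1* the shares were 7.90%, 6.17% and 13.9%. There too the order within the windows turned, to 9.40%, 12.7% and 14.7% under equal totals, to 10.6%, 14.0% and 16.5% under quantile normalization, to 12.1%, 15.0% and 18.4% with edgeR and TMM, to 6.37%, 8.1% and 11.2% with DESeq2, and to 8.18%, 8.63% and 14.3% without *pkl-1* replicate 1. In each of these fits the short runs outside the windows had the highest share. Median log2 fold changes in *nrpe1-11* were −0.48 in members, −0.13 in the long runs and −1.51 in short runs outside, and under equal totals they were 0.53, 1.04 and −0.67, with the same order and another sign in the windows. In strata of the mean over all 12 libraries, which again includes the *nrpe1-11* libraries, the share of members lower in *nrpe1-11* was 10.6% below 3 RPTM, 38.3% between 8 and 15 RPTM and 77.2% from 30 RPTM up. In the long runs of the windows these shares were 5.61%, 16.6% and 22.9%, and over all chromosomal bins 15.0%, 42.2% and 61.6%. Members thus lay below the chromosomal share below 3 RPTM and between 8 and 15 RPTM, and above it from 30 RPTM up. The strata were made on the RPTM scale only, and the order of short and long runs turned with the scaling above.

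Along the chromosomes the 10 windows held between 738 members (left of the chromosome 4 centromere) and 3163 (right of the chromosome 2 centromere), at 671 to 1020 members per Mb. Short runs made up 72.6% to 85.8% of the listed bins of a window. They were close together. The median gap to the next run was 200 bp, 5739 runs (35.9%) were separated from the next by a single unlisted bin, and in 12.5% the gap exceeded 1000 bp. Of the intergenic members, 61.7% lay within 1000 bp of a gene, at a median of 725 bp. Summed levels in *pkl-1* ran between 72.0% of WT right of the chromosome 5 centromere and 92.6% left of it, those in *nrpe1-11* between 36.4% and 47.4%, and those in *nrpd1-3* between 0.82% and 4.74%. The *pkl-1* range was 84.3% to 111%, in the same 2 windows, without *pkl-1* replicate 1. The *pkl-1* spread among windows was smaller than that among its libraries, which in the chromosome 5 left window alone was 56.7% to 126%. That window holds the bright bin chr5:10127801-10127900, with means of 5500 RPTM in *pkl-1* and 1189 RPTM in WT. The members of the window with some 24-base stretches unique, to which it belongs, summed to 20710 RPTM in *pkl-1* and 21403 RPTM in WT. The upper ends of 92.6%, 111% and 126% thus rest in large part on 1 bin. The next highest window, right of the chromosome 2 centromere, had 86.4% of WT in *pkl-1*.

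The highest *nrpd1-3* window share, 4.74% right of the chromosome 5 centromere, came with bins that hold no unique sequence. In that window the 386 members without a unique 24-base stretch kept 23.3% of their WT sum in *nrpd1-3*, against 1.49% in the 759 members with every stretch unique. All 3 *nrpd1-3* libraries showed a high share in the window, at 4.44%, 5.28% and 4.51% of WT. In the other 9 windows the order was the reverse, and members without a unique stretch kept 0.59% to 0.96% of their WT sum, below the 0.81% to 2.05% kept in members with every stretch unique. Over all windows 1371 members had no unique 24-base stretch in the reference, although the authors' methods state that only uniquely mapped reads were kept. They held 4.96% to 5.71% of member reads in *pkl-1*, 21.4% to 44.8% in *nrpd1-3*, 7.73% to 8.15% in *nrpe1-11* and 5.71% to 6.13% in WT. The *nrpd1-3* share came from the window right of the chromosome 5 centromere, which held 1947 of the 2043 RPTM of these members in *nrpd1-3*, and it was 0.995% to 3.03% in the other windows. In *nrpe1-11* the sums over all windows were 55.5% of WT in members without a unique stretch and 46.6% in those with every stretch unique, and in *pkl-1* they were 68.8% and 75%. Without *pkl-1* replicate 1 the *pkl-1* sums were 79.2% and 88.5%. The 15742 members with some stretches unique kept 38.3% of WT in *nrpe1-11* and 80.5% in *pkl-1* over all its libraries. In neither mutant did the share thus rise or fall steadily with uniqueness. Every 24-base stretch was unique in 26.4% of members, and the median member had 36% GC, 4 cytosines in CG, 5 in CHG and 25 in CHH over both strands. The long runs of the windows were alike, at 37%, 4, 4 and 27.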

How the data were processed

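Small RNA libraries of 3 biological replicates each of *pkl-1*, *nrpd1-3*, *nrpe1-11* and WT seedlings were analysed from the table the authors deposited. Per the methods and the submitters' processing notes (CASAVA 1.8, Trim Galore 0.4.0, BWA 0.7.15, bedtools, edgeR), adapters and bases of quality under 30 were trimmed, structural RNA reads were removed, uniquely mapped reads were kept on TAIR10, and 24-nt reads were summed per bin of 100 bp. The signal values deposited by the authors are this coverage as RPTM, scaled to mapped small RNA reads. All values (100%) were whole multiples of 1 read, within 0.05 reads, so reads were recovered for the count tests. The bins, windows, lists and tests were chosen with earlier results of these data known. Runs were built over listed bins. Each comparison of 2 genotypes was fitted with limma 3.58.1 in R 4.3.3 on log2(RPTM + 1) over the 56658 bins above 5 RPTM in at least 1 library, with Benjamini-Hochberg adjustment and a threshold of 0.01, and the steps were tested on simulated data. Named bins are, among members past the threshold with libraries that lie apart, the 6 furthest in each direction for each mutant against WT (1 per run), the 3 furthest in each direction for *pkl-1* against *nrpe1-11*, the 3 single-bin runs with the highest WT mean and the 3 members with the highest *nrpd1-3* mean. Folds are ratios of means. Where a genotype had no read, 3 reads over its 3 libraries set the bound. Annotation and sequence came from RefSeq for TAIR10, whose nuclear chromosomes match the table's coordinates, and uniqueness of 24-base stretches was counted in that genome with Python 3.11.15. Alternatives changed the pseudocount, filter, scaling, fit, threshold and libraries, or used edgeR 4.0.16 or DESeq2 1.42.0 on the recovered reads. The labels give 12 h of light a day, and the methods give another day length.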

Additional observations from a re-analysis of the deposited data

How the results depend on the processing

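Counts of changed, higher and lower members kept within 1.5 times of those reported under most alternatives that used all libraries, 114 against 66 that moved further. Without 1 library, 40 such counts moved further and 32 did not. In *pkl-1* against WT (1820 members) the count was 613 with a pseudocount of 0.1, 2790 with edgeR and TMM normalization, 3416 at an adjusted p under 0.05, and 620 of the 6072 tested members whose every 24-base stretch is unique. In *nrpd1-3* against WT (19932) it was 3733 under quantile normalization, which equalises what *nrpd1-3* lost, 12747 with DESeq2 and 5112 in unique members. In *nrpe1-11* against WT (5572) it was 3144 with a pseudocount of 0.1 and 1218 in unique members. For *pkl-1* against *nrpe1-11* (3484) it was 2256 with a pseudocount of 0.1, 857 of the 13609 bins above 5 RPTM in *nrpe1-11*, 5330 under quantile normalization, 6113 in a joint fit of all 4 genotypes, 5430 with edgeR and TMM, 6338 at an adjusted p under 0.05 and 763 in unique members. The lower counts in unique members come with fewer bins tested, and the other causes were not tested. Leaving out 1 library gave 739 to 1885, 17786 to 18884, 3229 to 5171 and 1384 to 2701 in the same order of comparisons. Summed levels over unique members were 68545 RPTM in *pkl-1*, 1082 in *nrpd1-3*, 42567 in *nrpe1-11* and 91428 in WT, and under equal totals 368570 in *pkl-1*, 89019 in *nrpd1-3* and 362424 in *nrpe1-11*, against 350964 in WT.

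Among the named bins, a sign changed only in bins that passed no test as reported. The bin chr5:12824201-12824300 in *nrpd1-3* went to 3.73 under equal totals, 2.09 under quantile normalization and 1.51 with edgeR and TMM, and between −0.25 and 0.047 without 1 library, and in *pkl-1* it ran between −0.20 and 0.27 (−0.08 without WT replicate 2). The *MIR829* bin in *nrpe1-11* went to 1.14, 1.16 and 0.10 under the same 3 settings, and between −0.56 and 0.27 without 1 library (0.20 without *nrpe1-11* replicate 1). Calls of named bins were lost 22 times under other settings and 32 times with 1 library left out, and 627 and 304 of these results kept their direction and side of the threshold. With the replicate number as a term (replicate block) 2584, 20051, 5608 and 3970 members changed, but the numbers were not taken to pair samples, since the same-number correlations ran between −0.01 and 0.17 and did not all exceed 0.1. Depth limits the faint bins most, as 1 read is worth up to 1.79 RPTM.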
